A study of Mus musculus with 19 samples.

Results

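Occupied CpG-poor promoters are transcription start sites with very few CG dinucleotides around them that nevertheless had a SOX3 peak close by in both SOX3 ChIP-seq replicates. They were selected by 2 measures. The first was a CpG ratio below 0.20, the number of CG dinucleotides observed over the number expected from the C and G content, in the 1000 bp around the start site. The second was a peak within 2 kb in each of the 2 peak lists. Start sites with a CpG-rich start site (ratio of 0.36 or more) within 4 kb were left out. Of 31647 start sites of curated RefSeq transcripts in the mouse genome build mm10, 6762 had a ratio below 0.20, and 6390 of these had no CpG-rich neighbour. Of the 6390, 358 start sites of 327 genes at 321 separate loci had a peak in both lists and are the members described here, 732 had a peak in 1 list, and 5300, here called unoccupied, had none. Because peaks chose the members, their occupancy, scores and ratios are a description and were given no test.

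The study mapped SOX3, ZBTB16 and SALL4 in mouse testis and histone marks in THY1+ undifferentiated spermatogonia, and its labels name 19 samples, of which 4 had a peak list that was analysed here. All 4 are labelled as mouse testis at postnatal day 7, which is the lower end of the age range given in the methods. By the methods they were seminiferous tubules pooled from several mice after removal of the tunica albuginea. The methods name a mouse antibody against SOX3 (SCBT sc-101155). The study's reporting summary also lists a rabbit one for ChIP (EMD Millipore AB5772), without saying for which libraries. There were 2 replicates of ChIP-seq and 2 replicates of ChIP-nexus, in which an exonuclease trims the DNA toward the protein contact. No sorting of cells is described for them, so a peak cannot be assigned to germ cells or somatic cells, and no list from mutant testis was analysed here. Replicate 1 of ChIP-seq had 58351 peaks and replicate 2 had 38832. The lists carry no read counts, and the read totals that the study states for its libraries were not used here. By those totals, the replicate with more peaks had fewer unique reads. The study describes the replicates as independent biological ones.

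SOX3 is an HMG-box transcription factor of undifferentiated spermatogonia, and SOX proteins bind short A- and T-rich elements such as AACAAT. Most promoters of widely used genes in mammals lie in CpG islands, stretches that escaped the loss of methylated CG dinucleotides and are usually free of methylation. Promoters outside islands belong more often to genes used in few tissues, such as hormones, secreted proteins and receptors, and are often methylated where the gene is silent.

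Most of the member sequences below hold few CG dinucleotides, but that of Tbxa2r holds 6 in its 150 bases. The rule measured the ratio over 1000 bp, where that of Tbxa2r was 0.178. The first 5 are among the strongest protein-coding members with a peak over the start site in both lists, no CpG-rich start site in either peak and at most 10 annotated exon bases in the window. Amh and Aldh1a1 are Sertoli cell markers among the members, and Sox3 is a CpG-rich promoter with a peak in both lists, shown for contrast. Each is the 150 bases upstream of the start site on the strand of the gene, from RefSeq (GRCm38.p6, the assembly of mm10), with every CG in capitals. Hsd3b7 is at chr7:127800459-127800608, Gas7 at chr11:67586350-67586499, Tbxa2r at chr10:81328553-81328702, Dctn1 at chr6:83179439-83179588, Amh at chr10:80805090-80805239 and Aldh1a1 at chr19:20601818-20601967, all on the plus strand, whereas Lipe at chr7:25390113-25390262 and Sox3 at chrX:60893431-60893580 are on the minus strand.
Hsd3b7: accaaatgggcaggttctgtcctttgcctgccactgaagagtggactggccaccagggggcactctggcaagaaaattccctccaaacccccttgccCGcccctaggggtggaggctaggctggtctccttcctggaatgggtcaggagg
Gas7: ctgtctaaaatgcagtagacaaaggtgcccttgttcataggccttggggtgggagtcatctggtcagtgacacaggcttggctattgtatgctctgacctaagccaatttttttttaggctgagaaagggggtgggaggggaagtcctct
Tbxa2r: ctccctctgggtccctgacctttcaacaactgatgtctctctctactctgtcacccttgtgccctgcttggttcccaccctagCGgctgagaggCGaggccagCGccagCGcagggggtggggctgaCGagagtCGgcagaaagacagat
Dctn1: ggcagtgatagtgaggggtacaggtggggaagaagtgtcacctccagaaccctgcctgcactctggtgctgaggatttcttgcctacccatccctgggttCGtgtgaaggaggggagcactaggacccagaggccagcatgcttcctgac
Lipe: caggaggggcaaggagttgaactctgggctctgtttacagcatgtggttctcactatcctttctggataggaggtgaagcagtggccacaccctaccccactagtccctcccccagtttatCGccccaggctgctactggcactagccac
Amh: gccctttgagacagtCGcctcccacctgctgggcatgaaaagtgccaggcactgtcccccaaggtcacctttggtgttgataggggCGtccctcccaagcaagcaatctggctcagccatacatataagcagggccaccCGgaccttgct
Aldh1a1: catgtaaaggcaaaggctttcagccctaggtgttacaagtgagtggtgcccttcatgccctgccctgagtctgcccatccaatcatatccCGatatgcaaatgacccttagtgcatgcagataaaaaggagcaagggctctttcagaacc
Sox3: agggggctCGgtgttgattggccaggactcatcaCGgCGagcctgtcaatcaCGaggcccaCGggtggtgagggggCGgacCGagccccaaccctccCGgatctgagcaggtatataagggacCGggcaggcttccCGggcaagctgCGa

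The Gas7 stretch held 0 CG dinucleotides, those of Hsd3b7, Dctn1, Lipe and Aldh1a1 held 1 each, that of Amh 3 and that of Tbxa2r 6, against 11 in the Sox3 stretch. The share of C and G in the member stretches ran from 49.3% in Gas7 and Aldh1a1 to 61.3% in Tbxa2r, and was 66.0% in the Sox3 stretch. The letters AAGGTCA, the element read by the steroidogenic factor NR5A1, began 90 bp upstream of the Amh start site. A match of letters is a description and not evidence of a bound site. Of the 327 member genes, 234 were in the RefSeq promoter table.

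Occupancy fell steeply with the CpG ratio. Over all start sites, 52.1% had a peak within 2 kb in both lists, whereas the share was 5.6% over the 6390 CpG-poor start sites. In the bands below 0.05, from 0.05 to 0.1, from 0.1 to 0.15 and from 0.15 to 0.2, the share was 0.442% (2 of 453), 2.62%, 4.98% and 8.91% (210 of 2357). It was 10.3% from 0.2 to 0.25, 37.7% from 0.36 to 0.5 and 93.3% from 0.75 to 1. Across the limit of 0.20 the share went from 8.91% to 10.3%, and whether this is a step was not tested. The exact binomial 95% intervals of these bands were 7.79% to 10.1% and 9.01% to 11.7%. These intervals cover counting error over start sites only, and neighbouring start sites can share a peak.

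**Figure D1:**
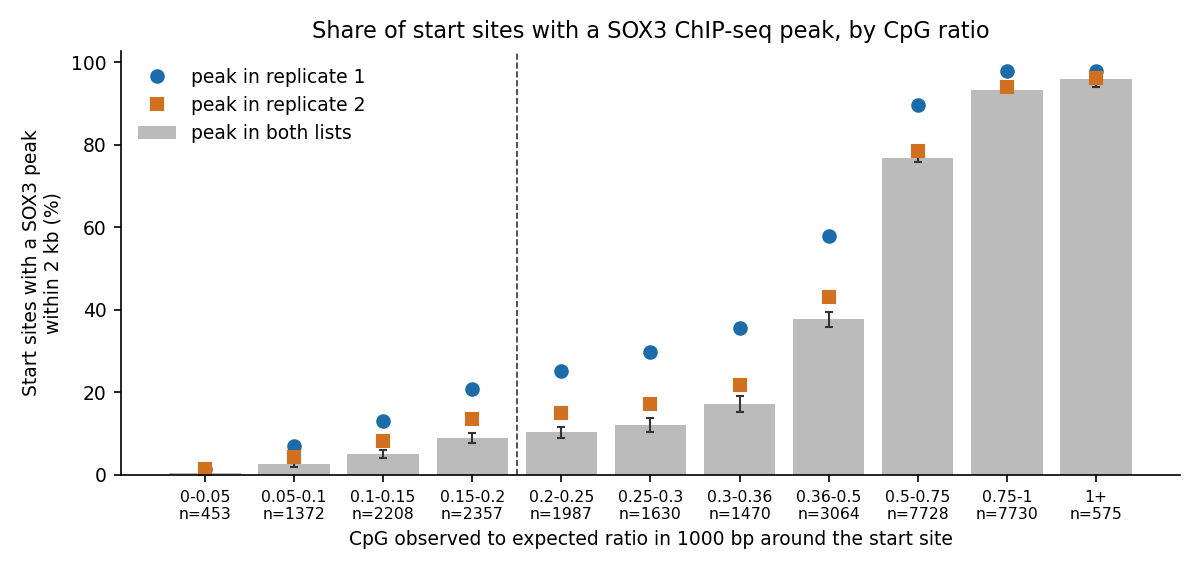
Percent of start sites with a SOX3 ChIP-seq peak within 2 kb (y axis) by CpG ratio of the 1000 bp around the start site (x axis), with bars for a peak in both lists, exact binomial 95% intervals, and points for each replicate alone. The share in both lists rises from 0.442% below 0.05 to 96.0% at 1 or more, and the dashed line marks the limit of 0.20 below which the members lie.

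Start sites at the limits of the rule are given without a test. At the limit of the ratio, the 3 members just below 0.20 were Tbc1d24, Gpbar1 and Lbp, with ratios of 0.1994 to 0.1998 and q scores of 34.1 to 52.2 in replicate 1 and 34.0 to 40.5 in replicate 2. The 3 start sites just above it, C1qtnf9, Islr and Hhatl, had ratios of 0.2001 to 0.2008 and q scores of 35.7 to 51.8 and 41.5 to 61.9. The q score is the adjusted p-value of a peak on a scale of minus 10 times its log10, and the lists start at 30. At the limit of the distance, Casz1, Spaca6 and Cabp2 were inside, with the farther list's peak 1942, 1952 and 1959 bp away and q scores in replicates 1 and 2 of 54.2 and 45.3, 291 and 138, and 31.4 and 31.9. Mir3075, Gm21057 and Wfdc6b were outside at 2005, 2016 and 2019 bp, with 44.8 and 37.7, 31.1 and 60.1, and 31.1 and 32.1. Spaca6 was thus a high-scoring member close to the limit.

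Around CpG-poor start sites taken as a whole, peaks were only slightly more frequent at the start site than 5 to 10 kb away. This comparison did not use the choice of members. Positions 5 to 10 kb away can hold CpG-rich start sites, because the rule left out only neighbours within 4 kb. In replicate 1, 4.9% of the 6390 CpG-poor start sites lay under a peak, against a mean of 3.62% for positions 5 to 10 kb away. In replicate 2 the values were 2.21% and 2.07%. The same positions gave 82.9% and 8.17% in replicate 1 and 72.0% and 4.28% in replicate 2 at 19097 CpG-rich start sites. Over the 5561 CpG-poor start sites at least 15 kb from any CpG-rich one, coverage was 3.29% at the start site against 1.69% at 5 to 10 kb in replicate 1, and 1.56% against 0.844% in replicate 2, so that both replicates showed a low peak centred on the start site there.

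**Figure D2:**
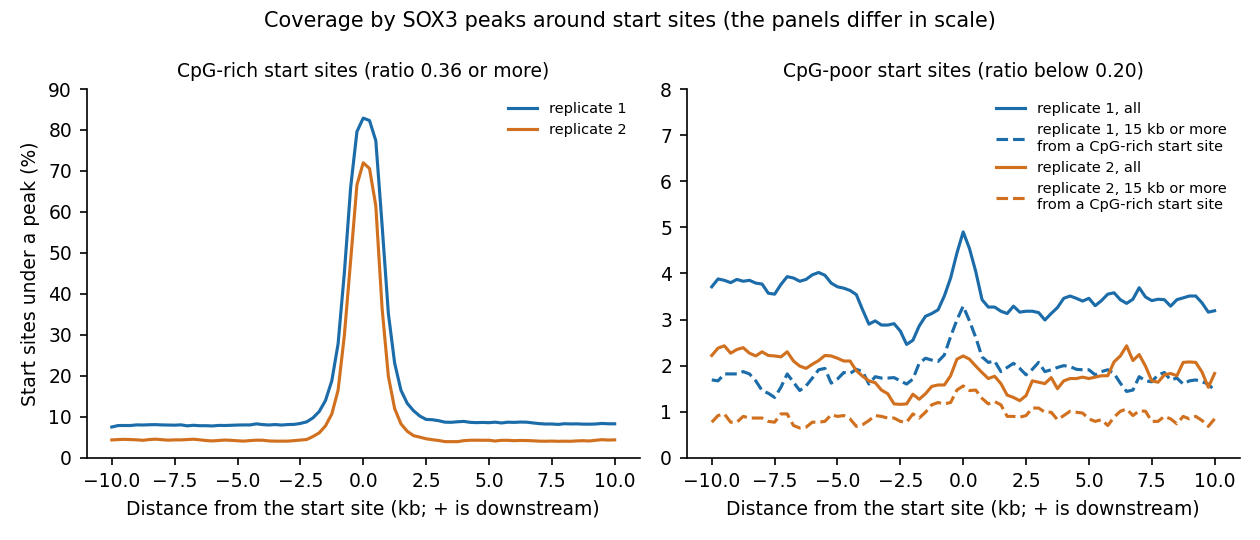
Percent of start sites under a SOX3 peak (y axis) at each distance from the start site (x axis, kb, downstream positive), for CpG-rich start sites on the left and CpG-poor start sites on the right, on different scales. CpG-rich start sites reach 82.9% and 72.0% at the start site, while all CpG-poor start sites (solid lines) reach 4.9% and 2.21%; the dip before and after the start site on the right lies where the rule removed CpG-rich neighbours within 4 kb.

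The peaks at members were weaker in q score than those at CpG-rich promoters in both replicates. The strongest peak within 2 kb had a median q score of 53.1 in replicate 1 (quartiles 42.1 and 84.6) and 41.9 in replicate 2 (quartiles 34.8 and 50.3), against 209 and 86.4 at the 14852 CpG-rich start sites with a peak in both lists. The difference of the medians, members minus CpG-rich, was -155.8 in replicate 1 and -44.5 in replicate 2 (mean -100.2 ± 78.7 (SD, n = 2)). The log2 ratio of ChIP over input behaved otherwise. Its median was 2.97 at members and 3.88 at CpG-rich start sites in replicate 1, but 2.66 and 2.71 in replicate 2, a difference of -0.91 and of -0.05 (mean -0.48 ± 0.61 (SD, n = 2)), which is less than the spread between the replicates. With members and CpG-rich start sites chosen from replicate 2 alone, the difference turned to 0.084. Peaks were also narrower at members, with median widths of 1250 and 809 bp against 1800 and 1396 bp, and the q score of a peak depends on how many reads it holds as well as on its ratio.

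**Figure D3:**
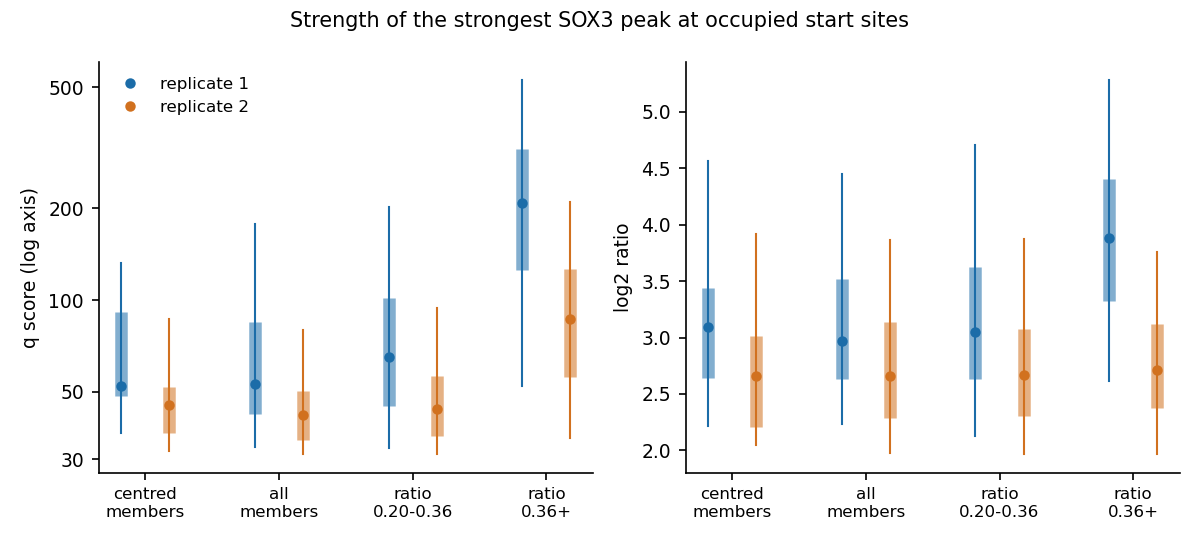
q score (left, log axis) and log2 ratio of ChIP over input (right) of the strongest peak within 2 kb of occupied start sites, for members with a peak over the start site in both lists and no CpG-rich start site in it, all members, start sites with a ratio of 0.20 to 0.36, and CpG-rich start sites. Points are medians, thick bars the quartiles and thin lines the 5th to 95th percentile of each replicate; the median q score of CpG-rich start sites is higher than that of members in both replicates, and the median log2 ratio is 3.88 against 2.97 in replicate 1 and 2.71 against 2.66 in replicate 2.

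The replicates gave an overlapping peak at 253 of the 358 members (70.7%), against 97.1% of the CpG-rich start sites. At the other members each list had a peak within 2 kb, but the strongest peaks did not overlap. Of the 358 members, 15 in replicate 1 and 7 in replicate 2 had a peak in the top decile of their list by q score. A q score above 60 was reached by 153 (42.7%) in replicate 1, 59 (16.5%) in replicate 2 and 45 in both lists. The same counts were not made for CpG-rich occupied start sites, whose lower quartiles of the q score were 125 and 55.9. Across 321 loci (1 start site each), Spearman's rho between the replicates was 0.465 for the q score and 0.0754 for the log2 ratio. These describe peaks that all had to pass a q score of 30.

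Many member peaks lay beside the start site and not over it. The strongest peak covered the start site at 146 members in replicate 1 (40.8%) and 92 in replicate 2 (25.7%), whereas 96.0% and 90.3% of CpG-rich start sites were covered. Where it did not, its edge was at a median distance of 902 and 934 bp. Peak midpoints showed no preferred side, with 180 members (50.3%) in replicate 1 and 176 (49.2%) in replicate 2 having the midpoint upstream. The peak intervals had a median CpG ratio of 0.204 and 0.2, and 53 and 60 of them had a ratio of 0.36 or more, so some members had a CpG-rich stretch within reach that was not an annotated curated start site.

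That was also seen with other annotations. At 45 members (12.6%), a strongest peak held a CpG-rich start site listed among all RefSeq transcripts, predicted ones included, or in GENCODE M21. These 45 had median q scores of 123 and 50.3, while the 313 others had 51.8 and 40.03. Likewise 45 members (12.6%) and 54 unoccupied start sites (1.02%) had a 500 bp window with a CpG ratio of at least 0.6 and a GC share of at least 50% within 2 kb. Of the 6277 CpG-poor start sites without such a window, 313 (4.99%) were members.

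A central group of 59 members, from 50 genes, had a peak over the start site in both lists and no CpG-rich start site of any of these annotations in either peak. Their median q scores were 52.2 and 45.3 and their median log2 ratios 3.09 and 2.66, and 57 of them had no CpG-rich 500 bp window within 2 kb. Their peaks had median CpG ratios of 0.172 and 0.161. Peaks chose these 59 as well, so this is a description. Shbg, which encodes sex hormone binding globulin, had the best mean rank among them, at q scores of 192 in replicate 1 and 113 in replicate 2, and its log2 ratios were 4.56 and 2.56. Mro, described with the Sertoli cell markers, came next, and Hsd3b7, an enzyme of bile acid synthesis, followed with 130.2 and 120. Gas7, a growth arrest gene whose start site here lies 108826 bp from the nearest CpG-rich one, had q scores of 96.9 and 88.2, and its peaks had CpG ratios of 0.0724 and 0.0774. Lipe, hormone-sensitive lipase, had 69.9 and 50.3. Trex1, a DNA exonuclease, had 106 and 75.2, and Pcolce, a collagen-processing enhancer of stromal cells, had 80.5 and 80.0. In these genes both replicates were above the median of all members.

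**Figure D4:**
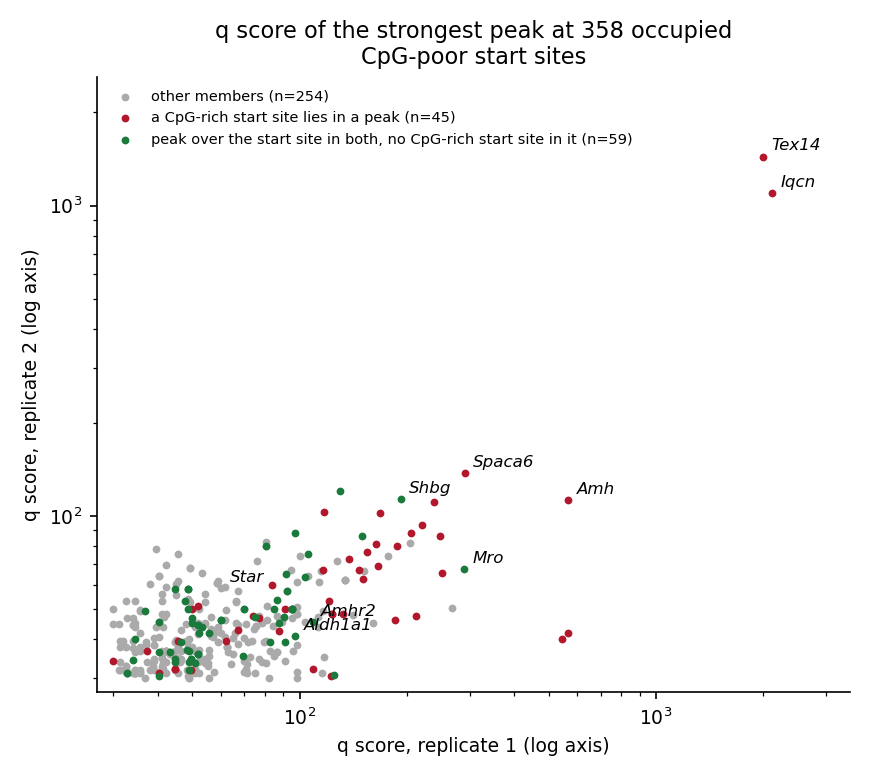
q score of the strongest peak within 2 kb of each of the 358 members in replicate 1 (x axis) and replicate 2 (y axis), both on log axes. The 59 members with a centred peak and no CpG-rich start site in it are green, and the 45 with a CpG-rich start site in a peak are red; Tex14 and Iqcn stand apart from all others at q scores above 1000 in both replicates.

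Most of the highest scores of all members came from peaks that also held a CpG-rich start site of another annotation, or a further gene. For Tex14, a gene of germ cell intercellular bridges, the q scores were 1999 and 1440 and the log2 ratios 6.71 and 5.36. Its member start site, chromosome 11 at 87427591, is an internal one, and both peaks also held Gm22068, an snRNA gene at chr11:87426716-87426879. Tex14 was also the only member with a ChIP-nexus peak within 2 kb, at chr11:87426495-87427142 in replicate 1 with a fold of 16.3. That interval contains Gm22068 and ends before the Tex14 start site. Iqcn, an IQ motif gene, had q scores of 2118 and 1099, from peaks 10292 and 7692 bp wide that also held the start site of the AP-1 gene Jund. The part of these neighbours in the scores was not tested. The other loci with the 10 best mean ranks were Amh, Spaca6, Tac4, Shbg, Dnah2, Ltbp3, Mro and Metap2, with q scores of 192 to 568 in replicate 1 and 67.6 to 138 in replicate 2. Of these 8, Shbg and Mro had no CpG-rich start site in a peak. By log2 ratio the 5 highest loci were Tex14, Iqcn, Mir6966, Amh and Il18bp, with means of both replicates from 4.30 to 6.03.

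Somatic marker genes of the testis were among the members. All the marker lists together, germ cell, blood, epididymal and immediate early ones included, held 343 markers. Of these, 81 had a CpG-poor start site without a CpG-rich neighbour and 10 were members. Those 10 include Tex33 of the spermatid list and Lcn6 of the epididymal list. Of all genes with such a start site, 5.38% were members. Of 8 Sertoli cell genes with such a start site, 4 were members. Of the others, Cst9 and Ptgds had a peak in replicate 1 alone, and Etd and Tsx were unoccupied. Amh, the hormone that makes the Müllerian ducts regress, had q scores of 568 and 112 from peaks 23193 and 9083 bp wide, and the wide peak of replicate 1 also held the start sites of Sf3a2 and Plekhj1. Amhr2, the receptor of that hormone, had 109 and 45.6, and the peak lay over the start site in both lists. Mro, maestro, had 290 and 67.6, again over the start site. Aldh1a1, a retinaldehyde dehydrogenase that makes retinoic acid, had 97.3 and 41.0 over a start site 591824 bp from the nearest CpG-rich one. All 4 were higher in replicate 1, as were the medians of the members.

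The Leydig, myoid and stromal, and endothelial lists together held 4 member genes. Of 9 Leydig cell genes with a CpG-poor start site, 1 was a member. This was Star, the cholesterol carrier of steroid synthesis, with q scores of 60.2 and 58.6 from peaks whose near edges lay 1648 and 1640 bp upstream of the start site. Cyp11a1, the side-chain cleavage enzyme, had a peak in replicate 1 alone (q score 43.0), and 7 others, among them Hsd3b1, Hsd3b6 and Prlr, had none. Actg2 and Mfap4 were members of 3 myoid and stromal genes. Actg2, smooth muscle gamma actin, had q scores of 42.1 and 31.2. Mfap4, an elastic fibre protein, had 86.3 and 36.5 at both of its member start sites, which share the peaks. Icam2, an adhesion molecule of endothelium, was a member of 5 endothelial genes, with 32.6 and 32.8. Of 18 blood and immune genes, 0 were members, 3 had a peak in 1 list and 15 were unoccupied, among them Lyz2, Mrc1 and Hbb-bs.

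Few start sites of the spermatogonial and meiotic lists were CpG-poor. The undifferentiated spermatogonia list had 1 of 31 genes with a CpG-poor start site, Nanos3, which had a peak in replicate 1 alone (q score 42.1). The differentiating spermatogonia list had 0 of 16 and the meiotic list 1 of 37, Tex15, which was unoccupied. Of 21 spermatid and sperm genes with a CpG-poor start site, 15 were unoccupied, including Acr, Akap4 and Smcp, 5 had a peak in 1 list and 1, Tex33, was a member with q scores of 69.3 and 35.5 over its start site. Of 15 epididymal and other urogenital genes, Lcn6 was a member (45.5 and 34.8), and Lcn2, Lcn5, Lcn8 and Lcn9, other lipocalins, had a peak in replicate 1 alone. Of the 26 immediate early genes, 0 had such a start site.

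Gene class differed little with the olfactory and vomeronasal receptors counted and more without them, and these families held no members. Protein-coding genes held 285 of the 358 members (79.6%) and 4041 of the 5300 unoccupied start sites (76.2%, or 69.4% without olfactory and vomeronasal receptors). For lncRNAs the numbers were 40 and 784 (11.2% and 14.8%, or 19.3% without the receptors). For microRNAs they were 28 and 305 (7.82% and 5.75%, or 7.5%), and for transcribed pseudogenes 5 and 148. With members chosen from replicate 1 alone, the difference for protein-coding genes, members minus unoccupied, turned from 3.36 to -0.225 percentage points. The highest by mean rank in the last 3 classes were 4931406H21Rik (q scores 150 and 86.3), Mir8111 (177 and 74.5) and Ptprv (134 and 62.4). For microRNAs the start site is the end of the hairpin and not of the primary transcript. Olfactory receptors had 906 CpG-poor start sites and 0 members, which allows a share of up to 0.331% (3 counts of the total, the limit used here for a count of 0), and vomeronasal receptors had 338 and 0 (up to 0.888%). Without both receptor families, members made up 6.96% of 5146 CpG-poor start sites. Defensins had 61 and 0 (up to 4.92%), keratins 38 and 0 (up to 7.89%) and kallikreins 26 and 0 (up to 11.5%), and the limits for keratins and kallikreins lie above the 5.6% of all CpG-poor start sites. Cytochrome P450 genes had 75 and 2 (Cyp1a1 and Cyp4f16), and serpins 52 and 1 (Serpinf2). Genes named for a transmembrane protein had 12 of 33 (36.4%), among them 5 start sites of the divergent pair Tmem176a and Tmem176b that shared 1 peak in each list (q scores 95.2 and 50.3). Solute carriers had 7 of 58 (12.1%).

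Beside the rule, members had a higher GC share and more start sites around them than unoccupied start sites. The median GC share of the 1000 bp was 52.8% at members (quartiles 50.3% and 55.3%), 42.9% at unoccupied start sites and 44.4% without the receptor families, against 60.6% at CpG-rich occupied start sites and 54.6% over all start sites. Occupancy in both lists rose from 0.116% of 1731 CpG-poor start sites with a GC share under 40% to 15.7% of 1099 between 50% and 55% and 27.3% of 362 between 55% and 60%. The share of letters in the repeat-masked part was 10.2% at members and 14.8% at unoccupied start sites. Members had a median of 6 start sites within 50 kb of them, themselves included, and unoccupied start sites 3.

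Members also lay closer to CpG-rich promoters, beyond the 4 kb that the rule set aside. The nearest CpG-rich start site was at a median of 19.5 kb from members, 26.3 kb from start sites with a peak in 1 list and 122 kb from unoccupied ones (93.5 kb without the receptors). Occupancy in both lists was 16.8% of 513 CpG-poor start sites at 4 to 10 kb from a CpG-rich one, 14.7% at 10 to 25 kb, 7.37% at 25 to 50 kb and 0.961% of 3019 at 100 kb or more. Each order was also seen within a class of the other property. Among start sites with a GC share of 50% to 55%, receptors left out, occupancy was 24.1% at 4 to 10 kb and 5.82% at 100 kb or more, and among those beyond 25 kb it was 0.432% at a GC share of 40% to 45% and 21.7% at 55% to 60%. Which of these properties goes with a peak by itself was not tested.

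**Figure D5:**
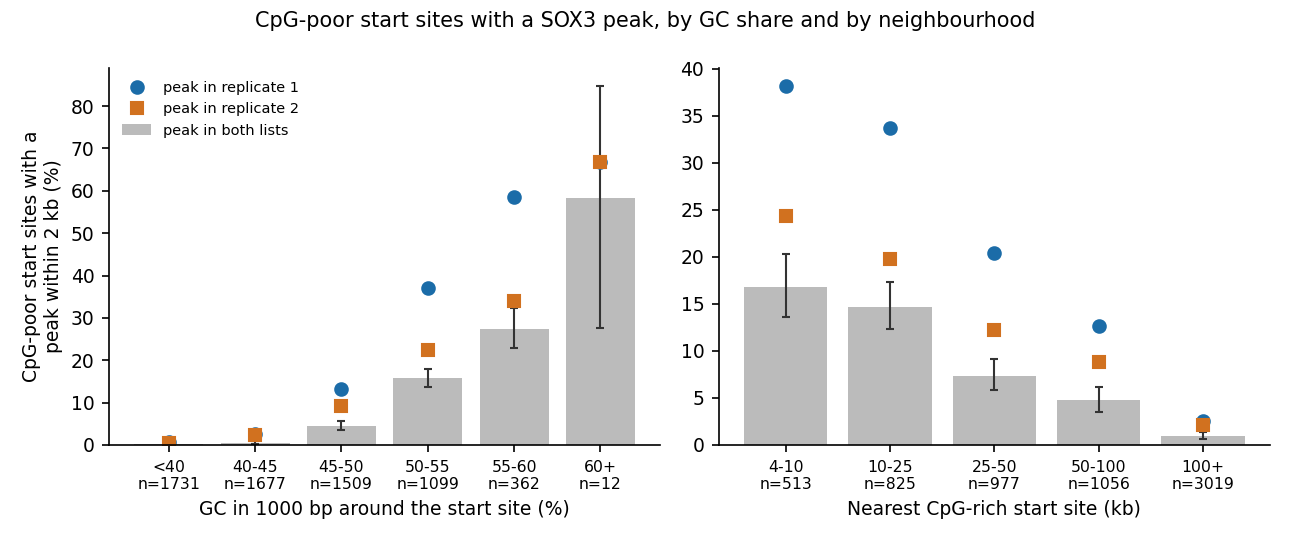
Percent of CpG-poor start sites with a SOX3 peak within 2 kb (y axes) by GC share of the 1000 bp (left) and by distance to the nearest CpG-rich start site (right), with bars for both lists, exact binomial 95% intervals, and points for each replicate alone. In both replicates the share is higher at high GC, up to 27.3% in both lists at 55 to 60%, and lower far from CpG-rich start sites, down to 0.961% at 100 kb or more; the last GC bar has only 12 start sites.

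The X chromosome held 2 members, Nyx and Pak3, and 321 unoccupied start sites. Thus 0.601% of its 333 CpG-poor start sites were members (exact binomial 95% interval 0.0728% to 2.15%) against 5.88% on all other chromosomes. A low share on X was not particular to members, as X held 2.4% of CpG-rich occupied and 4.22% of all start sites. The cause was not tested. Of the 327 member genes, 48 (14.7%) also had a CpG-rich start site elsewhere, and it had a peak in both lists in 45 of them. Of 5098 unoccupied genes, 287 (5.63%) had one, with a peak in both lists in 202 of them. Without the receptor families, 286 of 3865 unoccupied genes (7.4%) had one. Among all 19097 CpG-rich start sites, 14852 had a peak in both lists. The 306 members of genes without any CpG-rich start site had median q scores of 52.7 and 41.5, close to those of all members.

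Within 250 bp of the start site, SOX elements were not more frequent at members than at unoccupied start sites. The strongest peak covered the start site at only 40.8% of members in replicate 1 and 25.7% in replicate 2. For many members this window therefore lay partly or wholly outside the peak, and its shares do not describe the sequence under the peaks. The letters AACAAT, or else AACAAAG, or else ACAATGG, read on both strands within 250 bp of the start site, were found at 83 members (23.2%), 41.8% of unoccupied start sites, 13.1% of CpG-rich occupied ones and 22.9% of all start sites. Such A- and T-rich letters are less frequent in GC-rich sequence, and within the 50% to 55% GC class the shares were 20.3% of 172 members and 25.1% of 617 unoccupied start sites. In the 100 bp around the peak midpoint they were found in 18 of 322 member peaks (5.59%) in replicate 1 and 14 of 322 (4.35%) in replicate 2, against 5.48% and 5.13% of all peaks in these lists. AACAAT and ACAATGG can overlap in 1 stretch, and a start site counts once. In the ChIP-nexus lists of 110 and 18 mouse peaks, 1 and 0 members had a peak within 2 kb. The latter allows a share of up to 0.838% by the same limit of 3 counts. Of all start sites 56 and 1 had one, and of the 14852 CpG-rich occupied ones 48 and 0. By the study's totals, the ChIP-nexus libraries held far fewer unique reads than the ChIP-seq ones. With so few peaks anywhere, these counts cannot tell members from other start sites.

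Other promoter letters followed base composition in part. They too were read around the start site and not under the peak, and more letters were scanned than are given here. GGGCGG, a GC box read by SP1-type factors, was found within 250 bp at 21.8% of members, 5.75% of unoccupied, 82.0% of CpG-rich occupied and 51.3% of all start sites, and at 20.3% and 16.9% of members and unoccupied start sites in the 50% to 55% GC class. A TATA element (TATAAA or TATATA) 40 to 20 bp upstream on the gene's strand was found at 13 members (3.63%), among them Cyp1a1 and Lcn6, and at 7.89% of unoccupied and 3.24% of all start sites. In the GC class the TATA shares were closer, at 5.23% of members and 7.62% of unoccupied start sites. AAGGTCA was found within 250 bp at 50 of the members, among them Amh, Amhr2 and Tex33, at 11.3% of unoccupied and at 6.74% of all start sites. Within the GC class these letters were at 31 of 172 members and 47 of 617 unoccupied start sites. The core AGGTGGC, part of the CTCF element, was found at 16.2%, 7.04% and 11.1% of members, unoccupied and all start sites, and at 15.7% and 14.3% in the GC class.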

How the data were processed

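SOX3 ChIP-seq and ChIP-nexus were measured in testis labelled as postnatal day 7, with 2 replicates each. The authors aligned reads to mm10 with Novoalign, assigning reads with several matches at random, and removed duplicates with Picard. The deposited ChIP-seq lists, called per replicate with USeq, have no header. The names p score, q score (both scores as minus 10 times log10) and log2 ratio of ChIP over input, normalised by the authors, are inferred from the caller's layout and the values. The deposited ChIP-nexus lists from MACS2 2.1.1 give a score, fold enrichment, −log10 p and −log10 q. The study's methods describe removing blacklisted regions from its peaks, without saying whether that was done for these lists, and no such filter was applied here. A PhiX region in each ChIP-nexus list was left out. Start sites were unique positions of 45756 curated RefSeq transcripts on chromosomes 1 to 19, X and Y. The strongest peak was the one with the highest q score within 2 kb. Start sites within 4 kb of each other formed 1 locus. The ratio, peak and distance code was tested on simulated data and checked against bedtools 2.31.1 (Python 3.11.15, pandas 2.3.3, scipy 1.17.1). Named genes were the 10 loci with the best mean q score rank, the 5 with the highest mean log2 ratio, all members of the marker lists, the best-ranked member of each class, and 3 start sites either side of each limit. Others were chosen after their values were seen. The members and lists were chosen with earlier results of these data known. All values are descriptions without a test. Exact binomial intervals cover counting error only. The 15 samples without a list were not analysed here. Alternatives covered the limits, windows, annotation, score, overlap and each replicate.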

Additional observations from a re-analysis of the deposited data

How the results depend on the processing

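The lists hold no read counts, so how far depth limits each share was not tested, and members rest on peaks near the score limit of 30. The number of members (358) was 148 below a ratio of 0.15 and 563 below 0.25, 45 with a q score above 60, 224 with a peak within 1 kb and 724 within 5 kb, 550 with no exclusion of CpG-rich neighbours, 1023 with all RefSeq start sites and 1457 with GENCODE start sites, which hold more start sites. It ranged from 565 to 883 with 1 replicate left out. The share of CpG-poor start sites occupied (5.60%) was 0.704% with a q score above 60 and 8.84% to 13.8% with 1 replicate left out. The share of members with a peak over the start site in both lists (18.7%) was 35.6% with a q score above 60, 32.6% with a peak within 1 kb and 23.4% to 31.3% with 1 replicate left out. The difference in median log2 ratio between members and CpG-rich start sites (-0.479) turned to 0.084 without replicate 1 and was -0.931 without replicate 2. The difference in the share of protein-coding start sites, members minus unoccupied (3.36 percentage points), was 1.41 below a ratio of 0.25, 8.58 with a q score above 60, 15.01 with all RefSeq and 31.6 with GENCODE start sites, 1.01 without replicate 1, and turned to -0.225 without replicate 2. The difference for SOX letters (-18.6 points) was -14.2 with AACAAT alone and -17.8 to -12.1 with 1 replicate left out. The median CpG ratio of member peaks (0.203) was 0.218 below a ratio of 0.25, 0.284 with a q score above 60, 0.188 to 0.191 with 1 replicate left out, and 0.191 without start sites that have a CpG-rich RefSeq or GENCODE start site within 4 kb, an alternative added after seeing the data. The cause was not tested. The difference in median q score kept its sign under all its alternatives (-143.3 to -47.6 with 1 replicate left out). SOX letters around peak midpoints could not be compared with unoccupied start sites, which have no peak. No paired analysis was possible because the members come from 1 group of 2 replicates.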

Other observations

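CpG-poor start sites with a peak in 1 list lay between members and unoccupied ones in composition. Of the 732, 525 had the peak in replicate 1 alone (median q score 38.9, highest 762) and 207 in replicate 2 alone (34.8, highest 72.3). Their median GC share was 51.4%. Among them were Nanos3, a spermatogonial RNA-binding protein gene (q score 42.1 in replicate 1), Ptgds, a prostaglandin synthase of Sertoli cells (67.8 in replicate 1), and Csf1r, the macrophage growth factor receptor (33.8 in replicate 2).

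The 372 CpG-poor start sites that the rule left out for a CpG-rich neighbour within 4 kb had a peak in both lists at 192 (51.6%). Their median q scores were 189 and 75.3, and the strongest peak covered the CpG-poor start site at 24.5% and 18.2% of them in replicates 1 and 2.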
